A study of Drosophila melanogaster with 2 samples.

Results

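The genes elav (FBgn0260400), fne (FBgn0086675) and Rbp9 (FBgn0010263) encode the ELAV family of RNA-binding proteins in Drosophila melanogaster. They are 3 of the 13968 protein-coding genes on the chromosome arms, and 8 of the 3083 peaks in the conservative peak list of CG14667-eGFP had a summit within 10 kb of one of them. The genes were chosen by family membership, with their peaks in that list already known. Distances, signals and counts from the conservative list therefore describe these genes, and none of them was tested.

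ELAV proteins bind U-rich and AU-rich stretches of RNA through RNA recognition motifs and belong to the same family as the vertebrate Hu proteins. The protein elav is the standard marker of fly neurons. It acts in the nucleus on alternative splicing and on the choice of polyadenylation site, and so gives many neuronal transcripts a longer end. The protein fne (found in neurons) is also neuronal, is mostly cytoplasmic, and can take over part of the nuclear work of elav when elav is absent. Rbp9 is found in neurons and in the female germ line, where it is needed for the development of the egg chamber. CG14667 encodes a zinc-finger protein, tagged here so that its places in the genome could be read from the DNA it carried along.

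Both libraries came from whole embryos of the strain CG14667-GFP, collected from 0 to 24 h of development, which carry an insertion that makes a fusion of CG14667 with eGFP. Chromatin was sonicated to 200 to 800 bp and precipitated with an antibody against GFP. The labels describe 2 biological replicates of 1 genotype with separate biosamples and the same donor entry, and no second condition. Whole embryos mix neurons with all other tissues, so no peak can be assigned to the neurons in which the ELAV genes are expressed, and less binding per cell cannot be told apart from binding in fewer cells.

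The longest products of fne and Rbp9 were identical at 72.4% of 341 aligned residues, those of elav and fne at 65.1% of 344, and those of elav and Rbp9 at 56.2% of 402. Against Sxl, the sex-determination regulator with RNA recognition motifs, the values were 31.8% for elav, 39.8% for fne and 32.3% for Rbp9. The annotated products ran from 479 to 483 residues for elav, from 353 to 371 for fne and from 439 to 444 for Rbp9.

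Peaks were described by their pooled signal, a value computed by the authors from both replicates against a control, on a scale that the sources used here do not give. Ranks count from 1, the largest signal among the 3083 conservative peaks. IDR, the irreproducible discovery rate, estimates the share of peaks of the same rank or higher that would not recur between the lists compared, and the conservative list ends at a global IDR of 0.01. The deposited values cannot fall below 1e-05.

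The DNA under the peaks that lay at the 3 genes themselves is printed first, because these are the places at elav, fne and Rbp9 that the conservative list marks. Each sequence runs 5′ to 3′ in the direction in which its gene is transcribed, from the dm6 sequence of RefSeq. The first is the whole peak upstream of elav (chrX:523349-523612, minus strand, summit at base 130). The others are 101 bp windows with the summit at base 51: in an elav intron (chrX:522590-522690, minus strand), in an fne intron at 2 places (chrX:12923405-12923505 and chrX:12925956-12926056, plus strand) and in an Rbp9 intron (chr2L:2957764-2957864, plus strand). Capitals mark AACTTAA, the most widely shared word of 7 letters among the 8 peaks, and the motifs GAGAG and TAATTA, on either strand.
elav upstream peak: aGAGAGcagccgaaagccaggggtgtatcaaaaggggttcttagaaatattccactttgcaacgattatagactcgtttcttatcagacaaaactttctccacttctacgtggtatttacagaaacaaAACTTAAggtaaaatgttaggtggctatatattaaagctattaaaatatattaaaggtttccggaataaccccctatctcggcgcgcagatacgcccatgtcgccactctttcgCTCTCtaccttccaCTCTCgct
elav intronic peak: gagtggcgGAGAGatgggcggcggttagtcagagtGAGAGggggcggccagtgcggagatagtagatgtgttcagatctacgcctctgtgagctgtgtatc
fne first intronic peak: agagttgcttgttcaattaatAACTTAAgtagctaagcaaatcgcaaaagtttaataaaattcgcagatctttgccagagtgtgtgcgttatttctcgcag
fne second intronic peak: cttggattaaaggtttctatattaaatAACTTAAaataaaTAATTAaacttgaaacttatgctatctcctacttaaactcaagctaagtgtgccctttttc
Rbp9 intronic peak: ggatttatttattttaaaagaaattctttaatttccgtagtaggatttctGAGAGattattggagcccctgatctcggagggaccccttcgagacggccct

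Of the 3 genes, elav alone had a conservative summit within 500 bp of a start, at 257 bp. Such a summit was found at 12.6% of all protein-coding genes, and at 17.1% of the 890 genes with a length between those of the shortest and the longest of the 3. All 3 had a summit inside the gene, against 8.61% of all protein-coding genes and 34.9% of those 890. All 3 also had one within 10 kb, against 49.2% and 59.9%. These shares stand beside the counts for scale only, because the genes were chosen with the counts known. The summits nearest to the 500 bp limit on the far side were 586 bp downstream of an elav start and 903 bp downstream of an Rbp9 start. The conservative list held 2 peaks within 10 kb of elav, 3 within 10 kb of fne and 3 within 10 kb of Rbp9. At least 2 peaks within 10 kb were present for 22.5% of protein-coding genes and at least 3 for 7.89%. Both shares are over genes of all lengths and were not computed for the 890 genes of like length.

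**Figure D1:**
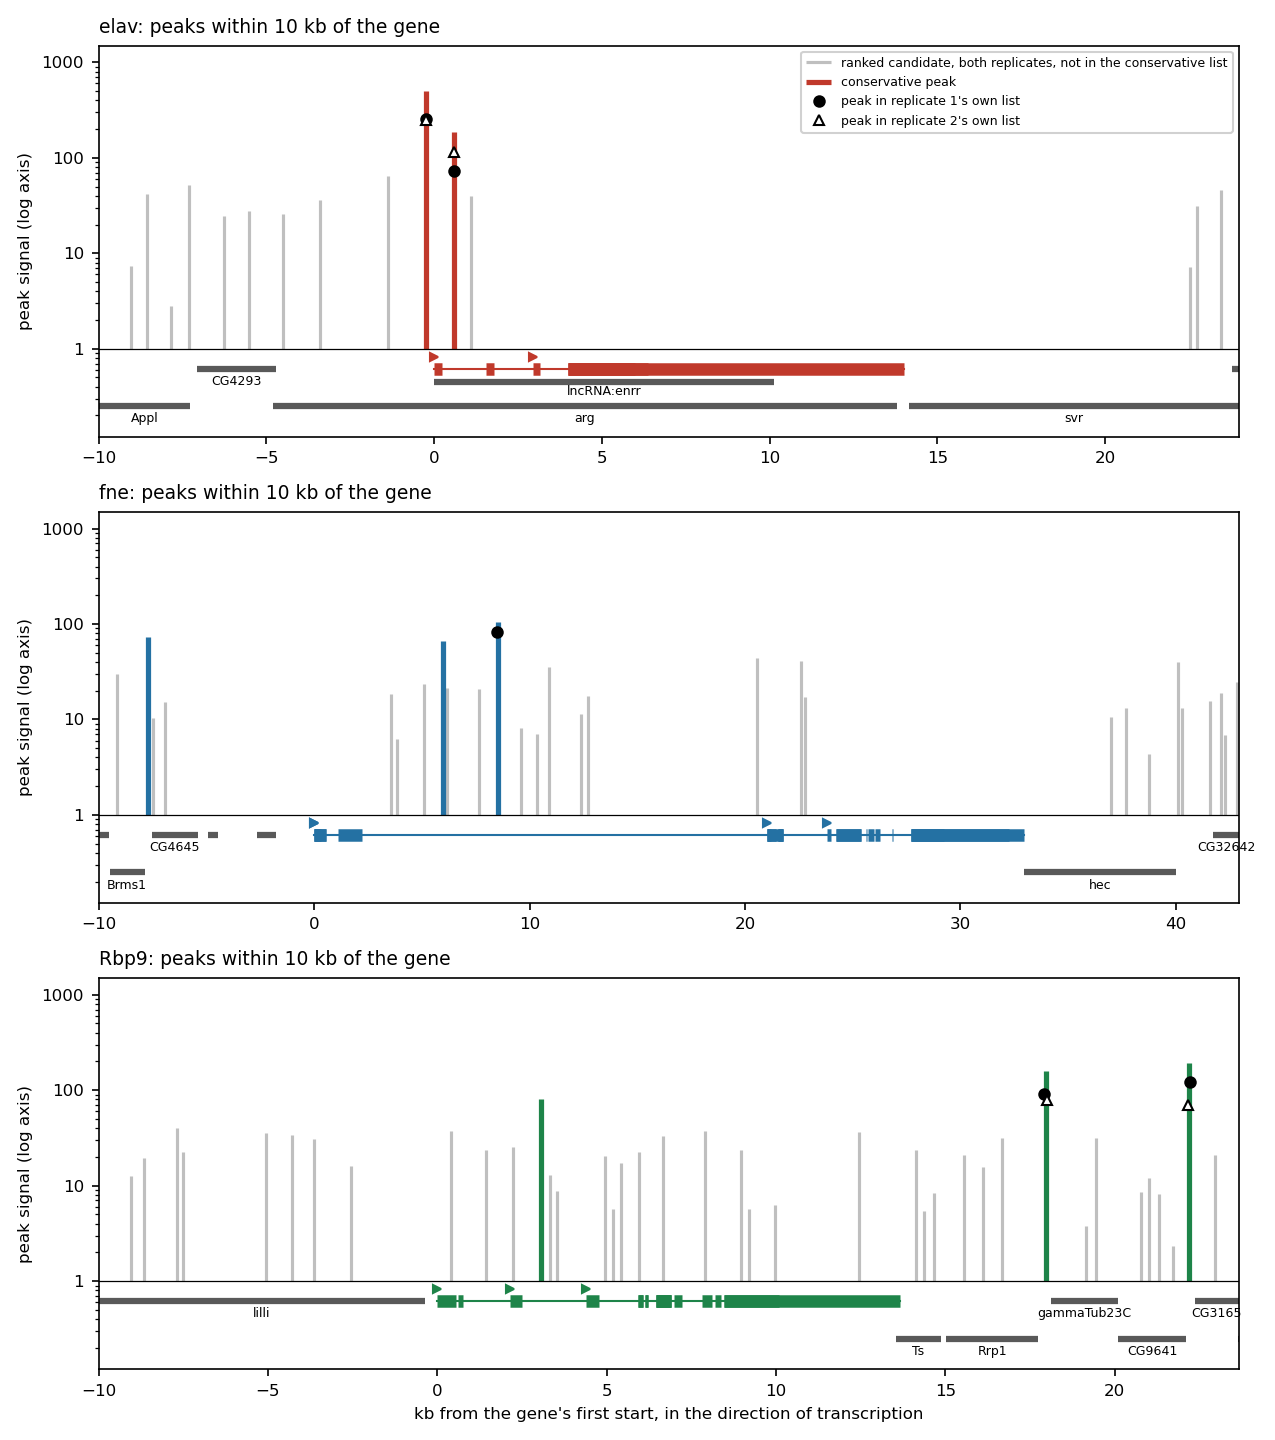
Pooled peak signal (log axis) against the distance in kb from the first start of elav, fne and Rbp9, in the direction of transcription. Coloured bars are conservative peaks, grey bars are ranked candidates outside the conservative list, circles and triangles are the signals of replicates 1 and 2 where the peak was in that replicate's own list. Boxes below are exons, arrowheads are starts and dark bars are neighbouring genes. The bar just upstream of elav reaches 503, and the introns of fne and Rbp9 hold bars of 67.1 to 106.

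The gene elav lies at chrX:509235-523226 on the minus strand and has 4 annotated transcripts. The transcripts RA, RC and RD begin at 523226, and RB begins 2941 bp farther downstream. The upstream elav peak (chrX:523349-523612) had its summit at 523483, which is 257 bp upstream of the first start. Its signal was 255 in replicate 1 and 249.6 in replicate 2, a mean of 252 ± 3.77 (SD, n = 2), and the summits of the replicates were 4 bp apart. The replicates thus gave almost the same value at this peak, and the log2 ratio of replicate 1 to replicate 2 was 0.03. The pooled signal was 503, rank 122, in the top 3.96% of the list, and the global IDR was at its lower bound of 1e-05. In the replicates' own lists the peak ranked 139 of 2699 and 108 of 2146, in the top 5.15% and 5.03%.

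The upstream elav peak was not upstream of elav alone. The long non-coding RNA gene lncRNA:enrr has the same start position and strand as elav, so the peak was 257 bp upstream of both. The summit also lay in an intron of arg, the arginase gene, which runs through elav on the opposite strand (chrX:509435-528028). A summit upstream of elav on the minus strand is therefore inside a transcribed gene on the plus strand, and the lists cannot assign it to either. No conservative summit lay within 500 bp of a start of arg.

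The second elav peak (chrX:522560-522692) had its summit 586 bp downstream of the first start, in an intron shared by elav, lncRNA:enrr and, on the other strand, arg. Its signal was 72.3 in replicate 1 and 115 in replicate 2 (mean 93.4 ± 29.9, SD, n = 2). Here replicate 2 was the higher, with a log2 ratio of -0.66, where the median over the 2966 arm peaks with an entry in both replicates was 0.22 and the 5th percentile -0.50. The peak was in both own lists, and its pooled signal of 186 ranked 765 (top 24.8%, global IDR 0.000109). It was 133 bp wide, where the median peak was 336 bp wide and 5.48% of the arm peaks were as narrow or narrower. Its entry was narrow in replicate 2 alone, at 103 bp, and was 316 bp wide in replicate 1. The 2 elav summits were 843 bp apart, and 17.7% of all summits had another within 1000 bp.

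No conservative peak was found at the downstream elav start of transcript RB. Its nearest conservative summit was the intronic one, 2355 bp upstream, and its nearest candidate in the ranked list behind the conservative list had a signal of 40.1 at 1840 bp. In that ranked list 2 candidates lay inside elav, or 0.143 per kb, where the median of the 890 genes of like length was 1.02 and 12% had fewer. From 1.1 kb to 22.5 kb downstream of the first start it listed no candidate, a stretch of 21.4 kb that covers most of elav and much of svr, the carboxypeptidase gene silver, which lies on the other strand and ends 162 bp from the end of elav. The replicates' own ranked lists did hold weak candidates there, at 4274, 6117 and 6325 bp with signals of 13.7, 7.18 and 18.3 in replicate 1, and at 19448 and 20605 bp with 7.2 and 10.1 in replicate 2. Inside elav replicate 1's ranked list held 5 candidates and that of replicate 2 held 2.

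Upstream of elav the strongest candidate that missed the limit had a signal of 64.5 at 1365 bp from the start, with a global IDR of 0.0127. This was just outside the limit of 0.01, and the first fne intronic peak, at 0.00641, had the largest global IDR of the 8 peaks inside it. In the ranked list behind the longer list the same candidate had a global IDR of 0.775. Beyond 10 kb, the next conservative peak on the downstream side lay 15.2 kb from the gene, near a start of CG17896, with a signal of 511, and on the upstream side none was found before 132 kb. The neighbouring genes CG4293 and svr had no conservative summit within 500 bp of a start. A weaker candidate in replicate 1's ranked list, with a signal of 41.4 and a global IDR of 0.109, lay 179 bp from a start of svr.

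The gene fne lies at chrX:12917477-12950417 on the plus strand, is 32.9 kb long and has 11 annotated transcripts from 4 start positions. None of these starts had a conservative summit within 500 bp. The nearest conservative summits were 5978 and 5971 bp away for the first pair of starts, which are 7 bp apart, and 12511 and 15266 bp away for the starts at 12938517 and 12941272. The start at 12938517, used by 5 transcripts, had a ranked candidate 504 bp upstream with a pooled signal of 44.1. Its signal was 32.3 in replicate 1 and 9.76 in replicate 2, and its global IDR was 0.787, above the limit.

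Both peaks inside fne lay in the long intron behind the first starts. The first intronic peak (chrX:12923287-12923622) had its summit 5978 bp downstream of the first start. Its signal was 38 in replicate 1 and 30.5 in replicate 2, and it was in neither own list. The replicates were close to each other and both low, and their ranked entries had global IDRs of 0.0343 and 0.865. The pooled signal of 67.1 ranked 2777 of 3083 with a global IDR of 0.00641. This peak was absent from the longer list, where the same candidate had a global IDR of 0.118, and 8.45% of the arm peaks of the conservative list were likewise absent from it.

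The second intronic fne peak (chrX:12925838-12926173) lay 2551 bp farther downstream, with its summit 8529 bp from the first start. Its signal was 81.6 in replicate 1 and 35.1 in replicate 2 (mean 58.3 ± 32.9, SD, n = 2). Replicate 1 was 2.33 times as high as replicate 2, and the log2 ratio of 1.22 was above the 95th percentile of all arm peaks, 0.94. The peak ranked 1154 in replicate 1's own list and was not in that of replicate 2, where its ranked entry had a global IDR of 0.818. With a pooled signal of 106 (rank 1722, global IDR 0.00183) it was the strongest peak within 10 kb of fne and still below the median of all arm peaks, 115.

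The third peak near fne (chrX:12909586-12909921) was 7.72 kb upstream and lay between 2 other genes that run apart. Its summit was 132 bp upstream of Brms1, which encodes a subunit of the Sin3 histone deacetylase complex, and 199 bp upstream of CG4645, whose nearer start is 331 bp from that of Brms1. Its signal was 36.3 in replicate 1 and 32.2 in replicate 2, in neither own list, and 72.3 pooled (rank 2635). The lncRNA gene lncRNA:CR45626 lies between this peak and fne. The next conservative peaks were 161 kb upstream and 149.7 kb downstream of fne. The receptor gene hec, which ends 18 bp from the end of fne on the other strand, had no conservative summit within 500 bp of a start.

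The gene Rbp9 lies at chr2L:2954762-2968434 on the plus strand and has 9 annotated transcripts from 3 start positions. Its only internal peak (chr2L:2957646-2957981) had a summit in an intron, 903 bp downstream of the start at 2956911, which 4 transcripts use, and 1333 bp upstream of the start at 2959147. Its signal was 43.7 in replicate 1 and 33.2 in replicate 2 (mean 38.4 ± 7.42, SD, n = 2). Both values were low, neither own list held the peak, and the global IDRs of the ranked entries were 0.0157 and 0.824. The pooled signal was 80.3, rank 2357 (top 76.5%), with a global IDR of 0.00395.

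Weaker candidates lay within 500 bp of 2 of the 3 starts of Rbp9. The first start had one 416 bp downstream with a pooled signal of 37.3, and replicates 1 and 2 had their own at 400 and 477 bp, with signals of 18.8 and 24.6. The start at 2956911 had one at 74 bp with a pooled signal of 25.4, and in the replicates the nearest were at 17 bp (22.7) and 602 bp (14.7). The start at 2959147, used by 3 transcripts, had none within 500 bp, and the nearest was at 573 bp with a pooled signal of 20.6. None of these was in a thresholded list. Inside Rbp9 16 candidates were listed, or 1.17 per kb, close to the median of 1.02 for genes of like length, while fne held 15, or 0.455 per kb. Of the 890 genes 64.2% had fewer per kb than Rbp9 and 22.7% had fewer than fne.

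The other peaks near Rbp9 were stronger than the one inside it and lay between pairs of genes that run apart. The first (chr2L:2972557-2972892), 4.29 kb past the end of Rbp9, was 166 bp upstream of gammaTub23C, which encodes a gamma-tubulin that nucleates microtubules, and 217 bp upstream of Rrp1, a DNA repair endonuclease gene and the next gene downstream of Rbp9. Its signal was 90.7 in replicate 1 and 79.1 in replicate 2, and it was in both own lists. The second (chr2L:2976771-2977106), 8.51 kb past the end, was 77 bp upstream of CG9641 and 183 bp upstream of CG3165, and had 123 in replicate 1 and 70.1 in replicate 2. The pooled signals were 160.1 and 191, ranks 965 and 737. Both summits were far closer to starts of these 4 genes than to any start of Rbp9, the nearest of which was 13578 bp from the first of them.

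The gene just upstream of Rbp9, lilli, which encodes a transcription elongation factor of the AF4 family, ends 355 bp before it and had no conservative summit within 500 bp of a start. The thymidylate synthase gene Ts, which overlaps the end of Rbp9, had none either. The strongest candidate near Rbp9 that missed the limit lay inside lilli, at -7698 bp from the first Rbp9 start, with a signal of 40.4 and a global IDR of 0.211.

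**Figure D2:**
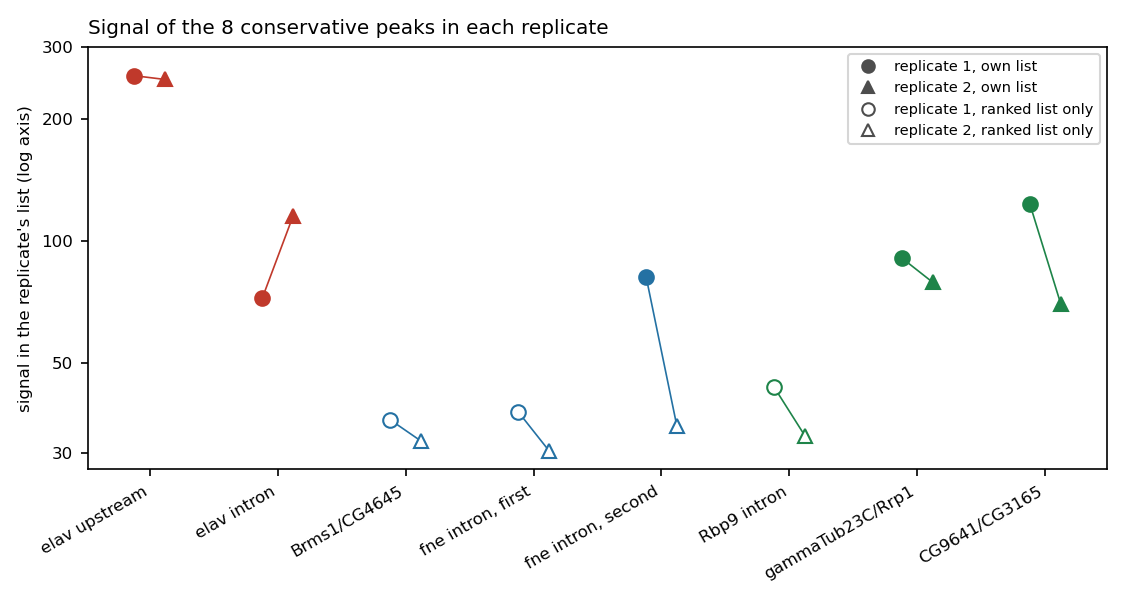
Signal (log axis) of the 8 conservative peaks within 10 kb of elav, fne and Rbp9 in replicates 1 and 2. Filled marks are peaks in the replicate's own list and open marks are entries of its ranked list only. The upstream elav peak, at 255 and 249.6, lies above every other value, and the open marks lie between 30.5 and 43.7.

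Across the 8 peaks the upstream elav peak stood above the others in both replicates. Its lower value, 249.6, exceeded the largest value at any other of the 8 peaks, 123 at the CG9641 and CG3165 peak. The remaining order was not the same in the 2 replicates: in replicate 1 the CG9641 and CG3165 peak came next, and in replicate 2 the intronic elav peak, at 115. The Brms1 and CG4645 peak, the first fne intronic peak and the Rbp9 intronic peak formed the low end, from 36.3 to 43.7 in replicate 1 and from 30.5 to 33.2 in replicate 2.

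Support from the single replicates differed between the 3 genes. Both elav peaks were in both own lists. The 2 peaks downstream of Rbp9 were also in both, and the second fne intronic peak was in that of replicate 1 alone. The first fne intronic peak, the Brms1 and CG4645 peak and the Rbp9 intronic peak were in neither. Among all arm peaks 56.2% were in both own lists, 24.8% in exactly 1 and 19% in neither. No peak inside fne or Rbp9 was in the own lists of both replicates.

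**Figure D3:**
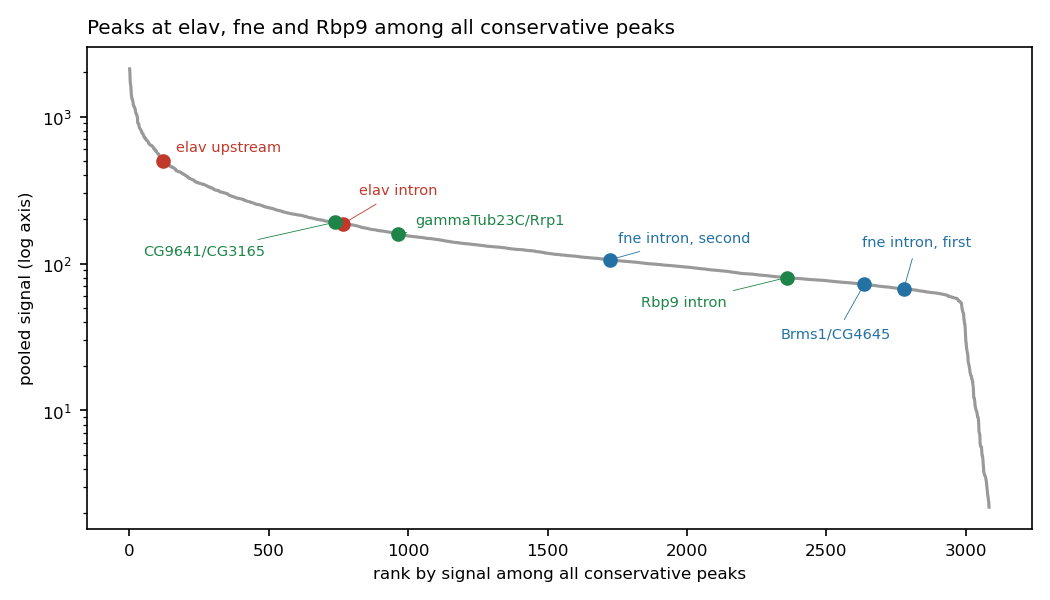
Pooled signal (log axis) against rank for all 3083 conservative peaks (grey line), with the 8 peaks near elav (red), fne (blue) and Rbp9 (green) marked. The upstream elav peak is at rank 122, and the peaks inside fne and Rbp9 are at ranks 1722 to 2777.

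The peaks next in rank are named by the gene with the nearest start, which can lie far off. Directly above the upstream elav peak, with signals of 505 to 509.8, stood peaks nearest to Ptpmeg2 (a tyrosine phosphatase gene), GluProRS (a tRNA synthetase gene) and for, which encodes the cGMP-dependent kinase foraging, whose start was 1130 bp away. Directly below it, with 495 to 498, stood peaks nearest to Trmt6, CG44286 and CG13018. Around the second fne intronic peak, all at 106, the nearest starts belonged to CG9205, shep, lncRNA:CR43883, CG11858, larp and CG43402, of which shep and larp encode RNA-binding proteins. The summits were 316 bp from shep, 114 bp from CG11858 and 627 bp from larp, but 4880 bp from CG9205, 1316 bp from lncRNA:CR43883 and 19527 bp from CG43402. Around the CG9641 and CG3165 peak, from 189.6 to 191, they belonged to Svil, Snap29, cact, CG11267 and Hsc70-5, and 1 peak lay on a scaffold of X. Likeness here means pooled signal in the 1 conservative list, and nothing else was compared.

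The DNA at the 8 summits was for the most part richer in A and T than its surroundings, as it was at most peaks of the list. In the 101 bp around all 3029 summits on the arms the GC content was 33.2% on average (SD 9.94), and in windows centred 300 bp to either side 44.4%. The upstream elav peak had 27.7% GC at the summit against 38.6% beside it. The second fne intronic peak had 26.7% against 52%, a difference of -25.2 points, and the Rbp9 intronic peak had 41.6% against 53%. At the peaks shared with other genes the summit values were 22.8% for Brms1 and CG4645, 28.7% for gammaTub23C and Rrp1, and 43.6% for CG9641 and CG3165, each below its flanks.

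The intronic elav peak had the highest GC content of the 8. Its value was 58.4% GC at the summit and 42.6% beside it, a difference of 15.8 points upward, and only 1.85% of all summits had a higher GC content. The first fne intronic peak, at 35.6% against 34.7%, was about level with its flanks. These were the 2 of the 8 peaks with a summit above its flanks, which was the case for 18% of all arm peaks. The intronic elav peak was also the narrowest of the 8 in the conservative list, though not in replicate 1. It was the one where replicate 2 was the higher, and any link between these properties was not tested.

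**Figure D4:**
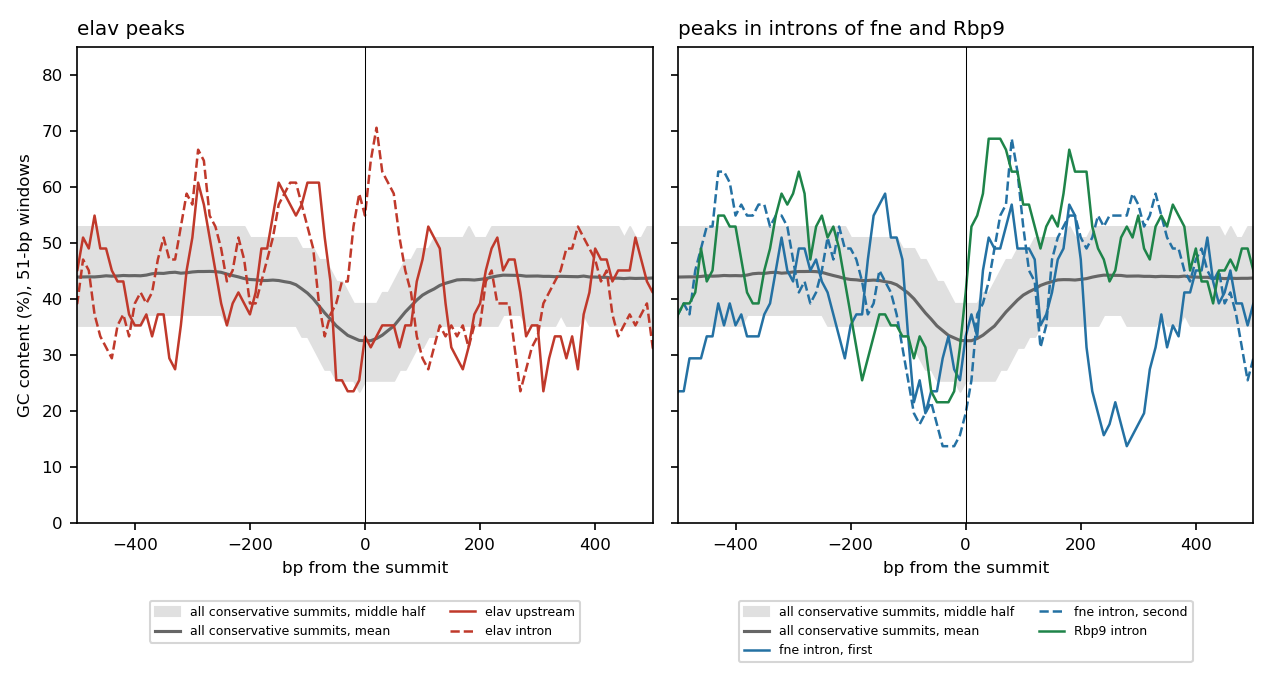
GC content in 51 bp windows against the distance in bp from the summit, for the elav peaks (left) and the intronic peaks of fne and Rbp9 (right). The grey line is the mean of all conservative summits on the arms and the grey band their middle 50%. The intronic elav peak rises above the band at the summit, where the mean of all peaks has its low point.

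Of the 6 motifs searched within 50 bp of the summit on both strands, 2 were found at these peaks. GAGAG, the core bound by GAGA factor, was in the intronic elav peak and in the Rbp9 intronic peak, where 7.56% of all summits and 15% of the flanking windows held it. The homeodomain core TAATTA was in the second fne intronic peak, beside 10.1% of all summits and 5.58% of flanks. In the printed window it follows closely after AACTTAA. The DRE (TATCGATA), the BEAF-32 element (CGATA, which every DRE also holds), the E-box (CANNTG) and TATAAA were in none of the 8 windows. They were at 1.02%, 14.3%, 33.6% and 24.1% of all summits. In the printed upstream elav peak the GAGAG letters on either strand lie near its ends, outside the 50 bp around the summit.

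The word AACTTAA, or its reverse complement TTAAGTT, was in 5 of the 8 summit windows: the upstream elav peak, all 3 peaks near fne and the CG9641 and CG3165 peak. Its middle was 2 bp from the summit at elav, 26 and 20 bp at the first and second fne intronic peaks, 29 bp at Brms1 and CG4645 and 8 bp at CG9641 and CG3165. Among the other 3021 summits on the arms 142 held it, or 4.70%, and 2.27% of the flanking windows did. The word was picked as the most widely shared of 670 words of 7 letters in these windows, so its count in them is a description only. Words with 6 letters A or T are common at these A and T rich summits in general. Over 448 such words the median was 4.14% of the other summits and 1.89% of flanks, and 167 of them were more frequent than AACTTAA. Another 3 words were in 4 of the 8 windows. Among the other summits AATAAAT was at 13.6%, while ATTTTAA was at 13.9% and TAAAATA at 14.5%.

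Other genes of RNA regulation and of neurons are set beside the family here, by counts alone. Sxl had a summit 405 bp from a start with a pooled signal of 113. It had 2 summits inside the gene, the largest signal there being 141, and 3 within 10 kb. The gene ssx, a close relative of Sxl, had none within 10 kb. A summit was at a start of 12.6% of all genes and of 17.1% of the 890 of like length to the ELAV genes. Of 17 genes for neuronal RNA-binding proteins, 3 (17.6%) had one. They were msi (musashi, a regulator of neural progenitors) with 831, orb, a translational regulator best known from the ovary, with 242, and shep with 231. Inside the gene a summit was found in 7 of the 17 (41.2%, against 8.61% of all genes and 34.9% of the 890 of like length to the ELAV genes), and 12 had one within 10 kb (70.6%, against 49.2% and 59.9%).

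Of 12 genes whose transcripts ELAV is known to regulate 1, shep, had a summit at a start (8.33%), 4 had one inside (33.3%) and 7 within 10 kb (58.3%). The genes brat, pum, shep and Adar are also among the neuronal RNA-binding protein genes above. Of those with a summit inside, brat, pum and shep are thus counted in both lists. The shares of all protein-coding genes were 12.6%, 8.61% and 49.2%, for these 12 genes and the next list alike. Those of the 890 genes of like length to the ELAV genes were 17.1%, 34.9% and 59.9%. Of 19 genes listed for neuronal identity and function 1 had a summit at a start (5.26%). It was Nrx-1, the neurexin gene of synapses, with a signal of 207 at 117 bp. The list also holds repo, a gene of glia, which had no summit within 10 kb. Inside the gene a summit was found in 4 of the 19 (21.1%), and 13 had one within 10 kb (68.4%). Among these 13 is Appl, a neighbour of elav on the other strand. Its 2 summits within 10 kb are those of the 2 elav peaks, the upstream one 7018 bp from a start of Appl, so this list is not separate from the family's own peaks. The median distance from a start to the nearest summit was 8.28 kb for the neuronal RNA-binding protein genes, 11.7 kb for the ELAV-regulated genes and 14.4 kb for the neuronal genes, beside 12.1 kb for all protein-coding genes. In the neuronal list ChAT and VAChT had the same distance, 14435 bp, which is also the median of that list. Each of them counts among the 13 with a summit within 10 kb. Several genes of these lists are long, and the values were not adjusted for length.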

How the data were processed

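CG14667-eGFP was mapped by ChIP-seq in 2 biological replicates of 1 group. Per the file headers, the authors derived the peak lists from filtered alignments and a control on dm6. The sources used here name neither the aligner nor the peak caller, and the read depth is unknown, so signals carry no counting interval. The authors deposited for each peak a signal on an unstated scale, a score capped at 1000, −log10 of a q-value and, in ranked lists, −log10 of the global IDR. Each ranked list of the series also holds 8 per-replicate columns that no label assigns, and these were not used. Replicate signals, summits, widths and global IDRs at the peaks came from each replicate's ranked list (overlap of at least 1 bp, largest signal taken). The replicate's own list gave whether the peak was in it and its rank there.

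Starts and genes came from Ensembl release 115, and sequence and proteins from RefSeq Release 6, the same assembly. Peaks on scaffolds were left out except in ranks. Positions are 1-based. GC content and motifs were taken in 101 bp around the summit and in windows of the same width centred 300 bp to either side. Of the gene lists, only nos could not be matched by symbol. Scripts used Python 3.11.15, pandas 2.3.3, numpy 2.4.6, Biopython 1.88 and matplotlib 3.10.9, and were tested on simulated peaks. The 3 genes and all lists were chosen with earlier results of these data known, so no test was run. Named genes were those 3, genes with a start within 500 bp of, or holding, one of their peaks, the nearest neighbours, the 3 peaks above and below by rank, and up to 4 genes per list with a summit at a start; other genes were named after their values were seen.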

Additional observations from a re-analysis of the deposited data

How the results depend on the processing

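The 55 alternatives concern counts, distances and signals in 1 group, which have no direction that could reverse. In 24 a count changed by over 1.5 times, or a distance or signal by more than the SD between replicates, which is small for elav. Signals from a single replicate's list were set against pooled signals without a common scale, as for elav against 503 pooled. These changes in signal therefore do not measure how well the replicates agreed. The other 31 include counts that fell from 3 genes to 2. The number of the 3 genes with a summit at a start was 0 within 250 bp and 2 within 1000 bp, and 1 in either replicate's own list. The number with a summit inside was 1 at a global IDR of 0.001 or less, and in the own lists, against 3 in the conservative list, it was 2 for replicate 1 and 1 for replicate 2. Within 10 kb it was 2 to 3 under every setting, 2 at the stricter IDR and in replicate 2's own list. Measured to any base of the peak, the distance to the nearest start was 123 bp for elav, 5803 bp for fne and 735 bp for Rbp9. For elav, the replicates' own lists gave 248 to 252 bp and signals of 249.6 to 255. For fne, the longer list gave 7723 bp, a global IDR of 0.001 or less gave 158820 bp with a signal of 213, and the own lists of replicates 1 and 2 gave 8492 and 158840 bp with signals of 81.6 and 109. For Rbp9, the stricter IDR gave 13578 bp with a signal of 160.1, and the own lists 13535 to 13614 bp with 79.1 to 90.7. For fne and Rbp9 the nearest peak under each of these list and IDR settings was another one than in the conservative list. The word AACTTAA was in 3 of the 8 windows within 25 bp of the summit, in 5 within 100 bp and in 4 around each replicate's summits, alternatives chosen after seeing the data. No paired analysis was possible because there is 1 group. Without read counts, a missing peak at fne or Rbp9 starts cannot be told from too few reads.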
